A study of Homo sapiens with 10 samples.

Results

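The transcriptomes of 2 human pancreatic cancer cell lines, PANC-1 and CFPAC-1, were compared in the vehicle (0.1% DMSO, 24 h) libraries of a study of the ferroptosis inducer imidazole ketone erastin (IKE). Genes were included where both DMSO libraries of at least 1 line held 1 FPKM or more (fragments per kilobase of gene scaled to library size, a level corrected for gene length). This rule took 12776 of the 20289 genes in the deposited table. Of these, 10764 reached 1 FPKM in both lines, 733 in PANC-1 alone and 1279 in CFPAC-1 alone. At the edge of the rule, 100 included genes had a deciding value from 1 to 1.1 FPKM and 102 genes left out had one from 0.9 to under 1 FPKM.

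The groups were CFPAC-1 with DMSO and PANC-1 with DMSO, with 2 libraries each. The line difference was read a further time in the drug libraries, which were CFPAC-1 with 10 µM IKE (2 libraries) and PANC-1 with 1 µM IKE (4 libraries), also for 24 h. Neither line carried an engineered allele per the labels, and surviving cells were collected after dead cells and debris had been cleared, in the vehicle cultures as in the treated ones as far as the protocol says. The labels name DMEM and IMDM as media, each with 10% serum, without saying which line grew in which, so line and medium cannot be told apart. Each line stands for 1 tumour, and replicates are called bioreplicates without saying that they were separate cultures, so every p-value here measures only the spread between these libraries.

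Both lines come from pancreatic ductal adenocarcinoma, a tumour that arises from cells with ductal features and often loses CDKN2A and SMAD4. CFPAC-1 was derived from a tumour of a person with cystic fibrosis and grows as an epithelial sheet, whereas PANC-1 is usually described as poorly differentiated and more mesenchymal. Ferroptosis is a form of cell death by iron-dependent lipid peroxidation, held back by cystine import through SLC7A11 and by the glutathione peroxidase GPX4, and the level of these genes before any drug is one reason to compare the untreated lines.

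FPKM totals of the 4 DMSO libraries ran from 405937 to 445656, and 11658 to 12231 genes reached 1 FPKM in a library. The small ribosomal protein gene RPS29 was the highest gene in each and took 9972 and 16637 FPKM in the CFPAC-1 libraries and 12057 and 17362 FPKM in the PANC-1 libraries, so replicates differed in it more than the lines did. Read counts are not part of the table. In short genes (600 to 900 exonic bases) the commonest value above 0 and under 0.2 FPKM was between 0.06 and 0.09 FPKM, which gives the size of the smallest steps. Levels under about 0.1 FPKM are therefore at the limit of what these libraries resolve, and no counting interval can be given. Replicates correlated at 0.9937 in CFPAC-1 and 0.9947 in PANC-1 over tested genes, against 0.714 between the lines' means.

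The lines differed in most of their expressed genes. With limma on log2(FPKM + 1), fitted to 13077 genes in all 10 libraries and adjusted by the Benjamini-Hochberg method, 5594 members were higher in PANC-1 and 4521 were lower, at an adjusted p under 0.05. These are 43.8% and 35.4% of members, beside 43.4% and 35.2% of all tested genes and 78.7% in either direction, so passing this test says little about any one gene. A stricter rule was used for the lists below, an adjusted p under 0.05 with a log2 difference of at least 1, which is a doubling of FPKM + 1. It left 2122 members higher in PANC-1 (16.6%) and 2334 lower (18.3%), beside 16.3% and 17.9% of all tested genes (34.2% together). Of the 4456 members past the stricter rule, all but 1 had DMSO libraries that did not overlap between the lines, beside 89.3% of all tested genes.

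Large differences lay more often on the CFPAC-1 side. A log2 difference of at least 3 was reached by 161 members higher in PANC-1 and 491 lower, and one of at least 5 by 17 and 103. The counts over all 13077 tested genes were the same. Over genes expressed in both lines they were 58 and 138 for at least 3, and 3 and 21 for at least 5. A member through 1 line alone had at least 1 library of the other line under 1 FPKM, so the rule favours its direction. No large difference is forced, and 215 members through PANC-1 alone and 341 through CFPAC-1 alone averaged 0.5 to 1 FPKM in the other line. Among the 10764 genes expressed in both lines, 1590 were higher in PANC-1 (14.8%) and 1273 lower (11.8%) at the stricter rule, and 4621 (42.9%) differed by less than 0.5 on the log2 scale. The median difference over all tested genes was 0.12, and with FPKM scaled by a median ratio it was near 0 (-0.00392), so a small excess of higher calls in PANC-1 moves with the scaling. Differences below are PANC-1 minus CFPAC-1 on the log2(FPKM + 1) scale, which understates those of low genes, and adjusted p-values are from limma. List counts use the stricter rule unless said otherwise and are given as descriptions.

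**Figure D1:**
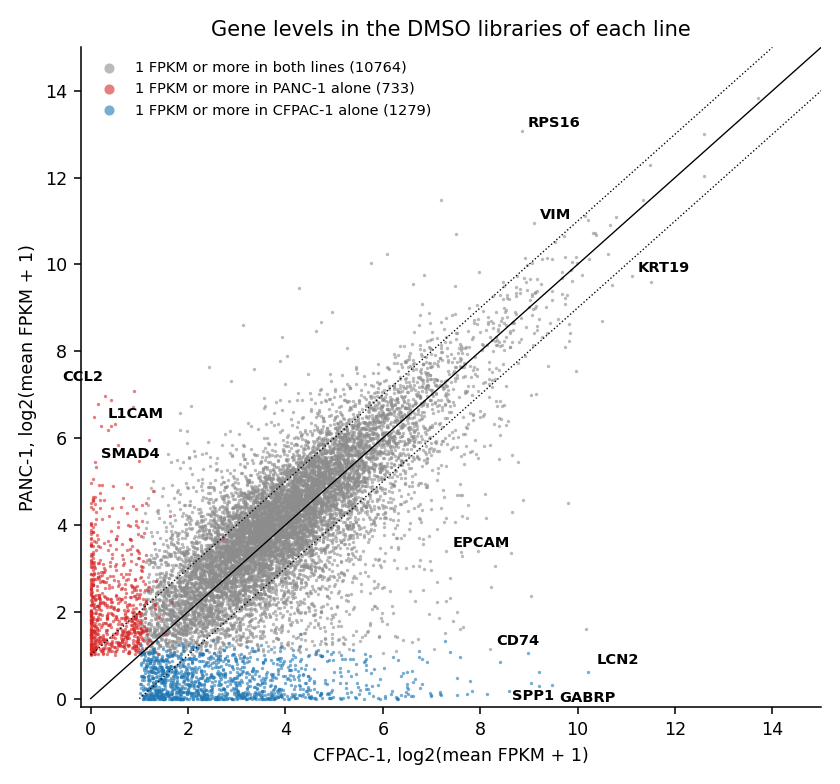
Mean level of each member in the 2 DMSO libraries of CFPAC-1 (horizontal) and PANC-1 (vertical), as log2(mean FPKM + 1). Grey points reached 1 FPKM in both lines (10764), red in PANC-1 alone (733) and blue in CFPAC-1 alone (1279). The solid line marks equal levels and the dotted lines a log2 difference of 1. LCN2, GABRP and SPP1 sit at the far lower right, CCL2 and L1CAM at the upper left, and RPS16 stands above the line among the most abundant genes.

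The largest differences were on the CFPAC-1 side. LCN2, a secreted protein that binds iron-carrying siderophores, was 1145 and 1242 FPKM in the CFPAC-1 libraries and 1.06 and 0 in the PANC-1 libraries. Its log2 difference was -9.70 (SE 0.25, adjusted p = 2.07e-11), the most negative of any member with a gene symbol. GABRP, a subunit of a GABA-gated chloride channel, was 695 and 717 FPKM against 0.5 and 0. TCN1, a vitamin B12 carrier protein, was 562 and 614 FPKM against 0.38 and 0.07. SPP1, or osteopontin, was 520 and 535 FPKM against 0.29 and 0.29. Each of these was among the abundant transcripts of CFPAC-1 and at 1.06 FPKM or less in PANC-1. The mucosal scavenger receptor DMBT1, the tetraspanin-like TM4SF4, the alcohol dehydrogenase ADH1C and the methyltransferase NNMT showed the same contrast, with differences of -8.65, -8.42, -7.63 and -7.93.

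In the other direction the leading genes included a chemokine and an adhesion molecule. CCL2, a monocyte attractant, was 0.07 and 0.38 FPKM in CFPAC-1 and 121 and 126 FPKM in PANC-1 (difference 6.68, SE 0.15, adjusted p = 5.44e-12). L1CAM, a neural cell adhesion molecule, was 0.12 and 0.1 FPKM against 105 and 113 FPKM (difference 6.63). Libraries that did not overlap between the lines were a condition for naming these genes, and both were included through PANC-1 alone. The aminopeptidase ANPEP, the gelatinase MMP2, the calcium-gated potassium channel subunit KCNMA1 and the fibrillar collagen gene COL5A2 followed, with differences of 6.06, 5.86, 5.85 and 5.84.

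Among genes expressed in both lines, the largest excess in PANC-1 was that of PLEKHG2 (8.08 and 7.38 FPKM against 395 and 381 FPKM, difference 5.48). S100A4, a calcium-binding protein linked to cell motility, was 3.28 and 5.46 FPKM against 193 and 206 FPKM (difference 5.25). CAVIN1, which coats caveolae, the kinase anchor AKAP12 and the carboxypeptidase inhibitor LXN were higher by 4.75, 4.68 and 4.43. On the other side MMP7, the matrix protease matrilysin, was 1117 and 1182 FPKM against 2.62 and 1.5 FPKM (difference -8.58). The phospholipase PLAAT4 was 513 and 541 FPKM against 4.06 and 4.2 FPKM (difference -6.69). The acyl-CoA synthetase ACSL5, the adhesion receptor ADGRF1 and the G protein regulator RGS2 were lower, with differences of -5.78, -5.99 and -5.65.

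Markers of pancreatic cell types were read to check the label. Of 11 ductal epithelial markers, 9 were members, and their summed level was 7147 and 6795 FPKM in CFPAC-1 and 5687 and 5136 FPKM in PANC-1. That sum was carried by the simple-epithelium keratins. KRT8 was 2773 and 2384 FPKM in CFPAC-1 and 3095 and 2659 FPKM in PANC-1, so its libraries overlapped between the lines (adjusted p = 0.19). KRT18, its partner in simple-epithelial filaments, was 1322 and 1340 FPKM against 1638 and 1615 FPKM (difference 0.29, adjusted p = 0.0131), and its call was lost with median-ratio scaling (0.16) and without the first library of either line. With quantile normalization both keratins were lower in PANC-1 (KRT8 -0.32, KRT18 -0.17). SOX9, a ductal transcription factor, was 47.1 and 41.9 FPKM against 30.4 and 30 FPKM (difference -0.54). The other 6 ductal members were lower in PANC-1 at the stricter rule. CFTR, the chloride channel mutated in cystic fibrosis, was below the rule in both lines at 0.93 and 0.7 FPKM in CFPAC-1 and 0 and 0.01 FPKM in PANC-1.

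None of 12 acinar and none of 9 endocrine markers was a member, with summed levels of 0.26 to 0.61 FPKM and 0.02 to 0.08 FPKM per library. PNLIP, CTRB1, INS, GCG and SST were listed at 0 in all 4 libraries. Fibroblast markers summed to 5.2 and 7.78 FPKM in CFPAC-1 and 23.4 and 24.4 FPKM in PANC-1, of which COL1A1 held 22 and 22.4 FPKM in PANC-1, while PDGFRA, DCN and FAP stayed under 0.3 FPKM in each library. Leukocyte markers came to 13.7 and 14.8 FPKM in CFPAC-1, nearly all of it CD14, with PTPRC at 0.02 FPKM or less there. Endothelial markers came to 19.2 and 21.7 FPKM in CFPAC-1, nearly all PECAM1, with VWF at 0.03 FPKM or less. Hepatocyte markers came to 442 and 489 FPKM in CFPAC-1 through FGB and SERPINA1, with ALB at 0.11 FPKM. In such bulk libraries, fewer cells of a type and less RNA per cell cannot be told apart.

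Epithelial cells are held together by adherens junctions built on E-cadherin, by tight junctions built on claudins and by desmosomes, and a small group of transcription and splicing factors keeps these genes on. Of 40 members of a list of junction and polarity genes, 29 were lower in PANC-1, none was higher and 11 did not pass the stricter rule. The median difference was -2.08, beside 0.12 over all tested genes, and the list summed to 2554 and 2496 FPKM in CFPAC-1 and 799.6 and 800.3 FPKM in PANC-1. Among the 29 of these genes expressed in both lines, 18 were lower and none higher.

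CDH1, the gene of E-cadherin on chromosome 16 (GRCh38 chr16:68737225-68835548), was 95.4 and 88.8 FPKM in CFPAC-1 and 13.6 and 14.5 FPKM in PANC-1. The lines did not overlap, and PANC-1 was 6.55-fold lower (difference -2.63, SE 0.09, adjusted p = 2.44e-10). EPCAM, an epithelial adhesion protein used to capture carcinoma cells, was 157 and 158 FPKM against 8.58 and 10.4 FPKM, which is 16.6-fold lower (adjusted p = 7.46e-12). E-cadherin thus remained measurable in PANC-1 at about 14 FPKM. The membrane protease ST14, the apical trafficking protein MAL2 and the small GTPase RAB25 were lower, with differences of -5.90, -5.91 and -6.32. Members that were higher in PANC-1 at adjusted p alone were CLDN1 (difference 0.43), P-cadherin CDH3 (0.42) and the protease inhibitor SPINT2 (0.77). The CLDN1 call was lost with median-ratio scaling, without the second CFPAC-1 library (0.35) and without the first PANC-1 library (0.39).

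The factors that maintain this state were lower as well, with 14 of 21 members lower, 1 higher and a median of -1.77. GRHL2, a grainyhead factor that keeps junction genes active, was 31.9 and 29.3 FPKM in CFPAC-1 and 0.05 and 0 FPKM in PANC-1 (difference -4.94, adjusted p = 2.19e-12). ESRP1, which splices epithelial isoforms, was 42.6 and 38.8 FPKM against 5.82 and 5.89 FPKM, so it was lower but still present (6.95-fold, adjusted p = 3.68e-10). The ETS factor EHF was 106 and 95.4 FPKM against 0.19 and 0.55 FPKM. KLF5 was lower, with a difference of -5.04. The exception was GRHL3, a grainyhead relative of skin, at 1.11 and 1.6 FPKM against 12 and 14.6 FPKM (difference 2.60, adjusted p = 5.25e-09). Of the 21, 9 passed the inclusion rule through CFPAC-1 alone, GRHL2 and EHF among them, which favours a lower level in PANC-1. Among the 12 regulators expressed in both lines, 5 were lower, 1 was higher and the median was -0.51.

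**Figure D2:**
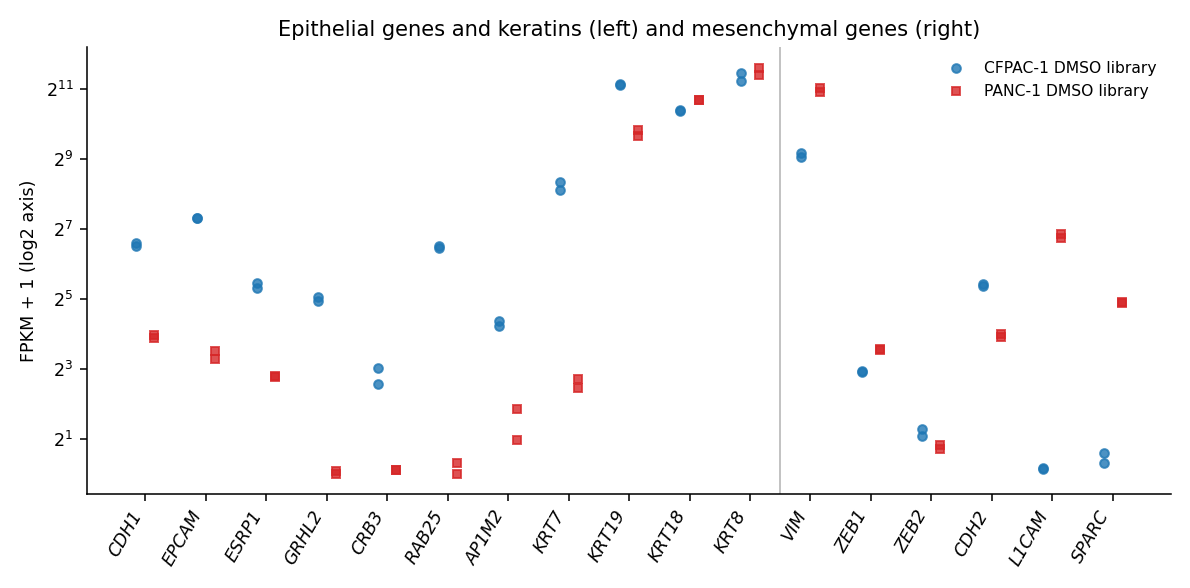
Level of 17 genes in each DMSO library, as FPKM + 1 on a log2 axis, with circles for the 2 CFPAC-1 libraries and squares for the 2 PANC-1 libraries. Genes left of the grey line are epithelial genes and keratins, those on the right mesenchymal genes. KRT8 is the gene whose libraries overlap, CDH1 remains at 13.6 and 14.5 FPKM in PANC-1, and N-cadherin (CDH2) and ZEB2 are lower in PANC-1 although VIM, L1CAM and SPARC are higher.

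Repressors of the ZEB and SNAI families bind the E-box letters CACCTG, so the promoter windows of the lower epithelial genes were read for these letters on both strands (CAGGTG on the printed strand is the same match). A window runs from 250 bases before to 50 bases after the gene start in RefSeq on GRCh38.p14. Of 53 members of the junction and regulator lists that were lower at adjusted p alone, 29 had a window, and 14 of these (48.3%) held at least 1 match and 6 (20.7%) at least 2. CDH1, EPCAM, GRHL2 and ESRP1 had no window. Over the windows of all members, 1886 of 10295 (18.3%) held 1 or more and 2.59% held 2 or more. Over all 27305 windows of the table the shares were 20.6% and 3.47%. Median GC content was 64.7% in the epithelial set and 65.3% over members. Epithelial genes that were not lower were not counted apart, so the share cannot be tied to the lower level in PANC-1. A match is a description of letters, not a bound site.

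The most matches lay in the window of CRB3, a polarity protein of the apical membrane, followed by AP1M2, the epithelial subunit of a sorting adaptor, and MYO5B, a motor of apical transport (difference -3.23), with 3 each. CRB3 was 7.03 and 4.93 FPKM in CFPAC-1 and 0.07 and 0.08 FPKM in PANC-1 (difference -2.68, adjusted p = 9.94e-09). AP1M2 was 17.6 and 19.6 FPKM against 0.96 and 2.61 FPKM (difference -2.88, adjusted p = 6.27e-07). CRB3 and AP1M2 are shown for their matches, counted beforehand, and RAB25 because it was among the genes furthest apart. The 250 bases before each start are given in lower case with matches in capitals, from chr19:6464021-6464270 (plus strand) for CRB3, chr19:10587313-10587562 (minus strand) for AP1M2 and chr1:156060910-156061159 (plus strand) for RAB25.
CRB3: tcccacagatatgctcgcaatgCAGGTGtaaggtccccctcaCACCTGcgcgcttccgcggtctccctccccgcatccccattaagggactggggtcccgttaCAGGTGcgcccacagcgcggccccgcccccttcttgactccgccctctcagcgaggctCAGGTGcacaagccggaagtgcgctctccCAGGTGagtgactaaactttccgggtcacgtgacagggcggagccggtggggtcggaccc
AP1M2: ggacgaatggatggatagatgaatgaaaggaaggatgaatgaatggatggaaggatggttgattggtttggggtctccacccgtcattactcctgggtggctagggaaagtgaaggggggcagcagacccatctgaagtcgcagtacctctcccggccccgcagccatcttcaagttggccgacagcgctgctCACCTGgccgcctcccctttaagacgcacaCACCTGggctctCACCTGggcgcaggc
RAB25: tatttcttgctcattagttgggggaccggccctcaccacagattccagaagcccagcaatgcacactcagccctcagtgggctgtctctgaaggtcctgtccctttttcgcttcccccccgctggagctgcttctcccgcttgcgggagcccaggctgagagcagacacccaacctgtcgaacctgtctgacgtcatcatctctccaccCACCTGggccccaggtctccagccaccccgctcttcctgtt
The CRB3 window held 5 matches and the AP1M2 window 3, all of them before the start. The RAB25 window held 2, of which 1 lies in the bases shown. The windows of CGN (difference -3.21), TJP3 (-3.18) and EHF (-6.22) held none.

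Keratins and mucosal glycoproteins separated the lines further. Of 14 keratin members 9 were lower in PANC-1 and none was higher, with a median of -1.55. Of the 14, 7 were included through CFPAC-1 alone, which favours a lower level in PANC-1. Over the 7 expressed in both lines 3 were lower and the median was -0.47. KRT7, a ductal keratin, was 271 and 320 FPKM in CFPAC-1 and 4.39 and 5.55 FPKM in PANC-1, or 59.5-fold lower (adjusted p = 3.60e-12). KRT19 was 2228 and 2214 FPKM against 891 and 801 FPKM, or 2.62-fold lower (adjusted p = 9.48e-08), so it stayed abundant in both lines. KRT23 and KRT20 were 65.9 and 63.5 FPKM and 25.9 and 21.7 FPKM in CFPAC-1 and at 0.02 FPKM or less in PANC-1. Keratin pseudogenes share sequence with KRT8 and KRT18, which leaves the values of those 2 genes less certain.

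Mucins coat ductal surfaces, and the CEACAM proteins are adhesion molecules that pancreatic tumours often display. All but 1 of the 21 members of this group were lower in PANC-1, with a median of -3.87, and 15 of them passed the inclusion rule through CFPAC-1 alone. CEACAM6 was 225 and 214 FPKM in CFPAC-1 and 0.43 and 0.23 FPKM in PANC-1. MUC1 was 286 and 270.5 FPKM against 19.3 and 14.2 FPKM (difference -3.99, adjusted p = 2.34e-10). MUC4 and the glycosyltransferase GCNT3 were lower, with differences of -5.75 and -6.29. The exception was MUC12, at 0 and 0.11 FPKM against 1.18 and 1.09 FPKM. CEACAM family members are near-identical in places, and the sources used here do not say how shared reads were assigned.

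Mesenchymal genes did not move as a block. Of 29 members of a list of mesenchymal structure and matrix genes, 14 were higher in PANC-1, 9 were lower and 6 did not pass, with a median of 0.86. Of these members 6 were included through PANC-1 alone and 1 through CFPAC-1 alone. Over the 22 expressed in both lines 10 were higher, 8 were lower and the median was 0.20. VIM, the intermediate filament of mesenchymal cells, was 571 and 529 FPKM in CFPAC-1 and 2083 and 1910 FPKM in PANC-1, or 3.63-fold higher (adjusted p = 6.82e-10). SPARC, a matrix glycoprotein, was 0.23 and 0.51 FPKM against 28.2 and 29.1 FPKM (difference 4.44). VIM was thus already among the abundant genes of CFPAC-1. N-cadherin, encoded by CDH2, went the other way, at 40 and 41.5 FPKM in CFPAC-1 and 14.1 and 14.9 FPKM in PANC-1 (difference -1.43, adjusted p = 4.28e-08). Fibronectin FN1 was 23.5 and 23.4 FPKM against 1.04 and 1.01 FPKM (difference -3.59, adjusted p = 8.72e-11). The proteoglycan VCAN and the protease inhibitor SERPINE2 were lower in PANC-1 (-5.88 and -4.13).

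Regulators of this program differed gene by gene. ZEB1, which represses CDH1, was 6.64 and 6.54 FPKM in CFPAC-1 and 10.6 and 10.8 FPKM in PANC-1, or 1.63-fold higher (difference 0.63, SE 0.14, adjusted p = 0.00153). ZEB2 was 1.09 and 1.4 FPKM against 0.77 and 0.62 FPKM (difference -0.40, adjusted p = 0.015), a call lost without the second library of either line, and with quantile normalization the difference was 0.04. SNAI1 was 0.22 and 0.3 FPKM against 3.78 and 4.12 FPKM (difference 1.97, adjusted p = 6.80e-09). The splicing regulator QKI and the methionine sulfoxide reductase MSRB3, both often counted with the mesenchymal state, were higher by 1.61 and 4.54. FOXC1 and TCF4 were lower, with differences of -1.82 and -1.54. Of the 11 regulator members, 4 were higher and 2 lower at the stricter rule, with a median of 0.62 that was -0.26 over the 7 expressed in both lines.

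Matrix receptors and proteases were mostly lower in PANC-1. Among 35 collagens, laminins and integrins, 19 were lower and 6 higher, with a median of -1.09. ITGB6, the epithelial partner of the integrin that activates TGF-beta, was 50.4 and 51.6 FPKM in CFPAC-1 and 0.18 and 0.17 FPKM in PANC-1. The hemidesmosomal laminin chain LAMB3 was 78.4 and 78.9 FPKM against 1.04 and 0.69 FPKM. ITGA5, the fibronectin receptor chain, was higher in PANC-1 (4.36 and 3.6 FPKM against 40.3 and 36.4 FPKM, difference 2.99). Of 23 proteases and inhibitors 14 were lower, among them tissue plasminogen activator PLAT (difference -7.56) and TMPRSS4 (-7.65), and 3 were higher, among them MMP2 and MMP16 (3.06). Of the 23, 6 were included through CFPAC-1 alone and 3 through PANC-1 alone. Over the 14 expressed in both lines 9 were lower and none was higher. PLAT was 330 and 345 FPKM in CFPAC-1 and 0.67 and 0.92 FPKM in PANC-1.

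Lineage factors of the foregut and pancreas differed gene by gene. Of 17 members 8 were lower in PANC-1 and 3 higher, with a median of -0.97. The inclusion rule favours most of these directions, since 8 members passed it through CFPAC-1 alone and 3 through PANC-1 alone. Over the 6 expressed in both lines 1 was lower, none was higher and the median was -0.52. HNF4A, ONECUT2 and SOX2 were lower, with differences of -3.15, -3.63 and -3.54. GATA6, a marker of the classical tumour subtype, was 4.38 and 3.68 FPKM against 0.9 and 0.46 FPKM (difference -1.59, adjusted p = 5.41e-07). Its relative GATA4 was the reverse, at 0.06 and 0 FPKM in CFPAC-1 and 5.47 and 5.71 FPKM in PANC-1 (difference 2.68). ONECUT3 and NR5A2 were also higher in PANC-1, by 2.52 and 1.52. FOXA2 differed little (4.28 and 3.6 FPKM against 4.62 and 6.35 FPKM, difference 0.38, adjusted p = 0.0223), a call lost with median-ratio scaling (0.27), in the fit of the DMSO libraries alone, without the second CFPAC-1 library (0.28) and without the second PANC-1 library (0.19). PDX1 was between 0.78 and 1.06 FPKM in all 4 libraries and was no member.

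HOX genes record position along the body axis, and the lines differed most in the HOXC cluster. HOXC10 was listed at 0 in both CFPAC-1 libraries and was 28 and 32.9 FPKM in PANC-1. HOXC13 was likewise listed at 0 and was 14.6 and 15.6 FPKM. HOXC9 was 0.01 and 0 FPKM against 11.4 and 10.7 FPKM, and HOXC6 was 0.51 and 0.44 FPKM against 14.7 and 16.9 FPKM. These members of the cluster were thus near or at 0 in CFPAC-1. Of 25 HOX members 14 were higher in PANC-1 and 2 lower, HOXA10 (5.91 and 4.97 FPKM against 0.86 and 0.52 FPKM) and HOXA6 (difference -1.05). Of the 25, 11 passed the inclusion rule through PANC-1 alone, and over the 10 expressed in both lines the median was 0.30.

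The genes lost most often in pancreatic cancer stood at opposite ends. SMAD4, the common mediator of TGF-beta signalling (chr18:51028394-51085045), was 0.11 and 0.01 FPKM in CFPAC-1 and 38.5 and 46.7 FPKM in PANC-1 (difference 5.36, SE 0.11, adjusted p = 3.29e-12). CDKN2A, which encodes the cell cycle brake p16 (chr9:21967753-21995301), was 45.7 and 35.7 FPKM in CFPAC-1 and 1.55 and 2.01 FPKM in PANC-1, or 22.9-fold lower (difference -3.90, SE 0.16, adjusted p = 8.60e-10). CFPAC-1 is known as a line without SMAD4 and PANC-1 as one without CDKN2A, and DNA copy number was not measured here. MYC was 39.8 and 33.7 FPKM against 19.1 and 17.8 FPKM (difference -0.95). RNF43, a brake on WNT signalling, was lower, with a difference of -3.04 and the axon guidance receptor ROBO1 higher by 2.61.

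The neighbours of these genes were read as well. Upstream of SMAD4, ELAC1, whose start lies 0.06 Mb away, was listed at 0 in both CFPAC-1 libraries and was 2.32 and 3.39 FPKM in PANC-1. ME2, a mitochondrial malic enzyme 0.15 Mb away, was 8.4 and 8.75 FPKM against 31.3 and 30.1 FPKM (3.58-fold, adjusted p = 4.42e-09), so it was lower in CFPAC-1 but present. On the far side MEX3C, 0.146 Mb away, was 15.5 and 14.7 FPKM against 19 and 17.4 FPKM (difference 0.26), a call lost with median-ratio scaling (0.13) and without the second CFPAC-1 library (0.22) or the first PANC-1 library (0.20). Higher levels in PANC-1 also lay further out, since SKA1, a spindle protein, and beyond it LIPG, a lipase, were higher by 1.41 and 2.99, while MYO5B between SKA1 and LIPG was lower (-3.23). Next to CDKN2A, MTAP, an enzyme of methionine salvage, was 34.3 and 31.9 FPKM in CFPAC-1 and 2.57 and 2.35 FPKM in PANC-1, or 13.5-fold lower (adjusted p = 4.11e-10). CDKN2B was 2.63 and 2.45 FPKM against 0.05 and 0.03 FPKM. The interferon gene IFNE and the leukaemia fusion partner MLLT3 were lower, with differences of -1.36 and -2.49, whereas DMRTA1, 0.479 Mb beyond CDKN2A, was 2.08 and 1.66 FPKM against 2.1 and 2.28 FPKM (adjusted p = 0.383), though it was called higher in PANC-1 with quantile normalization (0.52). A gene without a symbol, ENSG00000264545, overlaps MTAP and CDKN2A and was 0 and 0 FPKM in CFPAC-1 and 5.18 and 9.65 FPKM in PANC-1, so how reads were shared over this stretch is uncertain.

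The TGF-beta pathway around SMAD4 was split. Of 33 members 9 were higher in PANC-1 and 9 lower, with a median of 0.18. Of the 33, 6 were included through PANC-1 alone and 3 through CFPAC-1 alone, which favours those directions. Over the 24 expressed in both lines 3 were higher, 6 were lower and the median was -0.03. ID3, a target that restrains differentiation factors, was 0.17 and 0 FPKM in CFPAC-1 and 10.8 and 8.83 FPKM in PANC-1 (difference 3.31), while ID2 was 25.5 and 23.4 FPKM against 0.98 and 1.39 FPKM (difference -3.55). The latent binding protein LTBP1 and the activin subunit INHBB were higher by 3.03 and 2.82. The ligands BMP4 and TGFB2 were lower, with differences of -3.58 and -2.0, as was the receptor BMPR1B (-3.41).

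**Figure D3:**
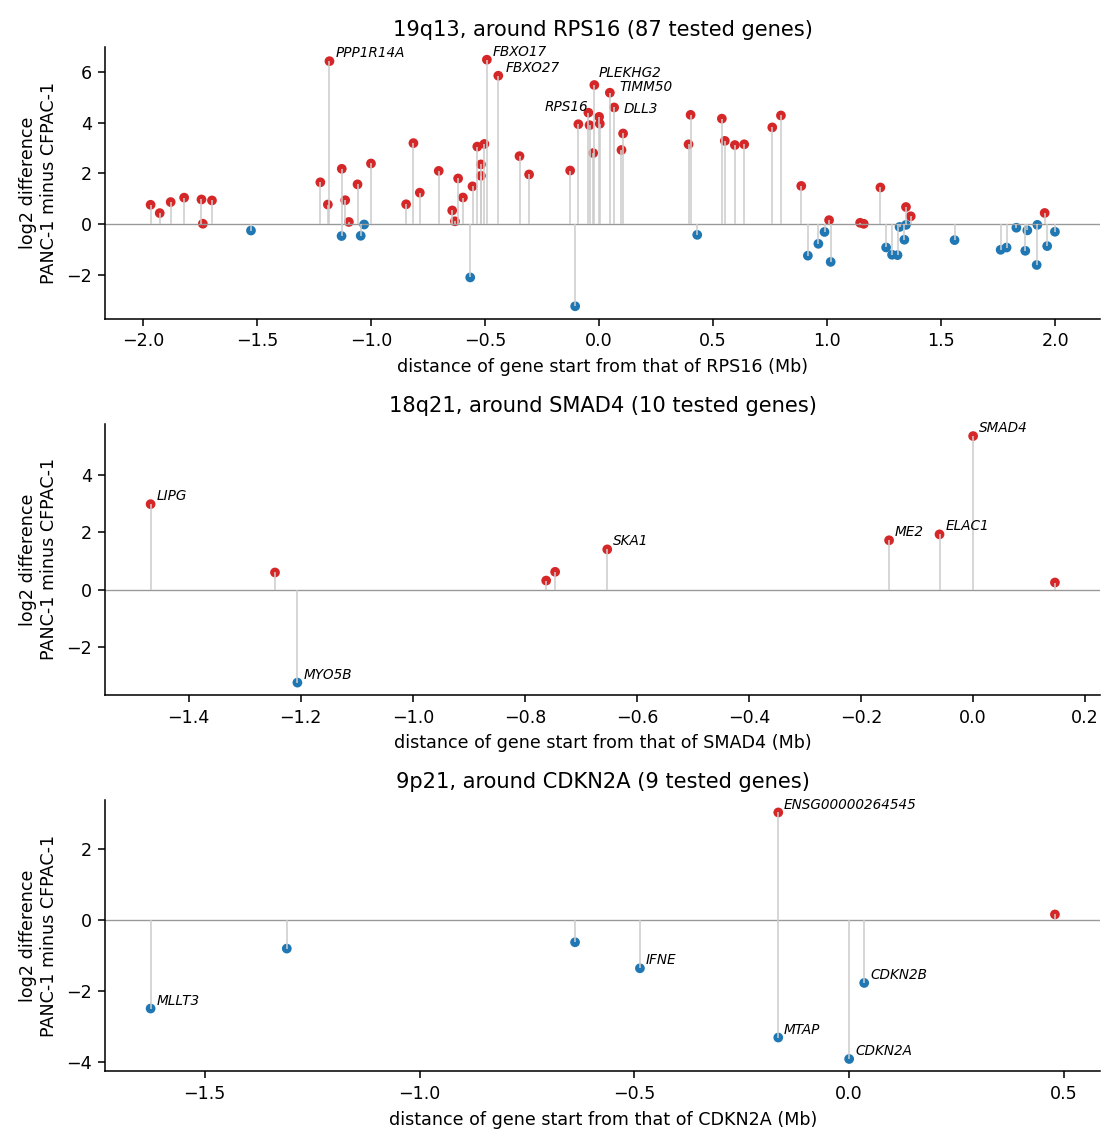
Log2 difference (PANC-1 minus CFPAC-1, DMSO) of each tested gene by the distance of its start from that of RPS16, SMAD4 or CDKN2A in megabases, with genes of the largest differences named. Around RPS16, 31 genes have a difference of at least 2, SMAD4 has the largest difference in its panel, where LIPG, ELAC1, ME2 and SKA1 are also above 1, and MTAP, CDKN2A and CDKN2B stand below 0.

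A stretch of chromosome 19q13 held the densest group of higher genes in PANC-1. Within 2 Mb of RPS16, 87 genes were tested, and 31 had a difference of at least 2, the first being PPP1R14A and the last AKT2 (chr19:38251237-40285536, with 49 tested genes between those ends). The 13 genes from SAMD4B to FBL (chr19:39342396-39846414) formed an unbroken run at a difference of 1 or more. PANC-1 is known for an amplification of 19q13 that includes AKT2 and PAF1. These 31 genes made up 0.265% and 0.266% of all FPKM in the CFPAC-1 libraries and 4.33% and 4.3% in the PANC-1 libraries.

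RPS16, a ribosomal protein (chr19:39433207-39435948), was 444 and 478 FPKM in CFPAC-1 and 8392 and 8864 FPKM in PANC-1, or 18.7-fold higher (difference 4.22, SE 0.09, adjusted p = 5.61e-12). It alone took 1.94% and 1.99% of all FPKM in PANC-1. FBL, the methyltransferase of ribosomal RNA, was 147 and 142 FPKM against 2842 and 2895 FPKM (19.8-fold). AKT2, a survival kinase, was 52.6 and 53.5 FPKM against 1058 and 1037 FPKM (19.7-fold, adjusted p = 1.47e-12). PAF1, a subunit of the elongation complex of RNA polymerase II, was 14 and 14.5 FPKM against 300.3 and 338 FPKM. SUPT5H, another elongation factor, was 29.5 and 30.9 FPKM against 483 and 478 FPKM (15.9-fold). The ratio varied along the stretch, and the translation factor subunit EIF3K, at 181 and 182 FPKM against 1676 and 1650 FPKM, was 9.16-fold higher. TIMM50, part of the mitochondrial import channel, was 17.6 and 19.3 FPKM against 702 and 698 FPKM (38-fold), and PLEKHG2 was 50.2-fold higher.

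Not every gene of the stretch was higher. GMFG, a regulator of actin branching that blood cells mainly use, was 15.3 and 19.5 FPKM in CFPAC-1 and 1.22 and 0.68 FPKM in PANC-1 (difference -3.24, adjusted p = 1.85e-08), although SAMD4B, at the near end of the unbroken run, was higher by 3.93. RINL was 4.45 and 4.83 FPKM against 0.27 and 0.35 FPKM (difference -2.11). FCGBP, a mucus protein, was 2.84 and 2.6 FPKM against 1.94 and 1.6 FPKM (difference -0.43), a call lost with quantile normalization and without the first CFPAC-1 library (-0.38) or the second PANC-1 library (-0.34). Past AKT2, C19orf47 was higher by 1.5, and PLD3 was lower, with a difference of -1.25. DLL3, a NOTCH ligand of neuroendocrine tumours, was 0.05 and 0.03 FPKM in CFPAC-1 and 23.9 and 24.3 FPKM in PANC-1.

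Windows of 15 neighbouring tested genes were ranked by their median difference along all chromosomes. Below 19q13, the next highest window lay on chromosome 9 (chr9:35812960-37592642, median 1.95, with 11 of 15 genes higher and none lower). The lowest was the HLA class II and proteasome region (chr6:32190766-33087201, median -2.88), where 12 of 15 were lower. A second low window lay on chromosome 17 (median -2.73, with 11 lower). There SYNRG, a trafficking protein, was 115 and 111 FPKM in CFPAC-1 and 11.9 and 11.8 FPKM in PANC-1 (9.54-fold, adjusted p = 2.76e-11). The helicase gene DDX52 was 55.1 and 54.3 FPKM against 7.01 and 7.82 FPKM (7.37-fold), and ARHGAP23 was 204 and 188 FPKM against 7.75 and 9.84 FPKM (22.3-fold). Several genes of that window belong to the TBC1D3 family of near-identical copies, whose values are uncertain. The third low window, on chromosome 11 (chr11:117285207-118572970, median -2.17), held 10 lower genes and 1 higher, including TMPRSS4.

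Whole chromosomes leaned as well. On chromosome 14, 180 of 435 tested genes (41.4%) were lower in PANC-1 and 13 (2.99%) higher, with a median of -0.82. Chromosome 21 had 34.9% lower and 4.65% higher, and chromosome 4 had 34.4% and 6%. The reverse was seen on chromosome 18, with 30.3% higher and 13.1% lower, and on chromosome 11, with 25.9% and 12.6%. The background over all tested genes was 16.3% higher and 17.9% lower. Windows and chromosomes were not tested, and copy number was not measured.

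Antigen presentation and interferon-response genes were lower in PANC-1 almost throughout. Of 23 members of a list of HLA class I and II, peptide loading and proteasome genes, 18 were lower, none was higher and the median was -2.31. HLA-B was 469 and 476 FPKM in CFPAC-1 and 22.6 and 22.8 FPKM in PANC-1, or 20.8-fold lower (adjusted p = 5.48e-13). The shared class I light chain B2M was 2752 and 3061 FPKM against 761.5 and 778 FPKM (3.77-fold). B2M thus remained abundant in PANC-1, whereas class II genes did not. CD74, the invariant chain of class II, was 306 and 282 FPKM against 1.14 and 1.28 FPKM, and HLA-DRA was 136 and 149 FPKM against 0.19 and 0.04 FPKM. The immunoproteasome subunit PSMB8 was 120 and 131 FPKM against 20.1 and 19.3 FPKM (6.37-fold). TAP2, a chain of the peptide transporter, overlapped between the lines at 28.2 and 20.5 FPKM against 26.8 and 26.2 FPKM (adjusted p = 0.674). HLA genes vary between people and share sequence, so their values depend on how reads were matched to 1 reference. B2M, PSMB8 and TAP2 were named from the list after their values were seen.

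Interferon-response genes are switched on by STAT factors with IRF9 after interferon binds its receptor. Of 38 members 32 were lower in PANC-1, 1 was higher and the median was -2.08, and of the 33 expressed in both lines 27 were lower. IFI27 was 548 and 635 FPKM in CFPAC-1 and 0.9 and 0.15 FPKM in PANC-1 (difference -8.64, SE 0.19). MX1, a GTPase that blocks viruses, was 199 and 202 FPKM against 2.48 and 1.8 FPKM, or 93.7-fold lower (adjusted p = 1.57e-12). BST2, which tethers budding virus, was 313 and 316 FPKM against 6.98 and 7.63 FPKM. The exceptions were OASL, at 11.3 and 12.1 FPKM against 24.2 and 25.5 FPKM (difference 1.02), and IFIT2, at 27.2 and 28.7 FPKM against 39.4 and 39.3 FPKM (difference 0.48).

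Cytokines and chemokines split between the lines. Of 16 members 11 were lower in PANC-1 and 4 were higher. Of the 16, 6 were included through CFPAC-1 alone and 2 through PANC-1 alone, which favours those directions. Over the 8 expressed in both lines 5 were lower and 2 higher. The neutrophil attractants CXCL5 and CXCL8 were 24.1 and 19.9 FPKM and 5.53 and 5.33 FPKM in CFPAC-1 and under 0.5 FPKM in PANC-1. The 4 higher genes were CCL2, CCL5 (0.34 and 0.52 FPKM against 5.96 and 7.73 FPKM), the macrophage growth factor CSF1 (8.3 and 7.44 FPKM against 40.6 and 40 FPKM) and IL32 (difference 1.03).

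Growth factor receptors were lower in PANC-1 in 20 of 38 members of a list of receptor kinases and ligands and higher in 8, with a median of -1.10. Among the 38, 4 were included through CFPAC-1 alone and 5 through PANC-1 alone. Over the 29 expressed in both lines 16 were lower and 3 higher. ERBB3, a partner receptor of the EGF family, was 95.3 and 97.3 FPKM in CFPAC-1 and 1.54 and 1.38 FPKM in PANC-1, or 66-fold lower (adjusted p = 1.13e-11). ERBB2 was 151 and 163 FPKM against 17.5 and 16.4 FPKM (9.25-fold). EGFR did not pass, at 59.2 and 58.7 FPKM against 62.8 and 60.1 FPKM (difference 0.06, SE 0.07, adjusted p = 0.45), and turned to -0.07 with median-ratio scaling. TGFA, an EGFR ligand, was 49.5 and 49.2 FPKM against 0.82 and 0.97 FPKM. MET was 176 and 163 FPKM against 73.8 and 64.9 FPKM (2.44-fold). Its ligand HGF was listed at 0 in both CFPAC-1 libraries and was 15 and 15.3 FPKM in PANC-1 (adjusted p = 9.80e-12). Receptor and ligand RNA were thus found together in PANC-1. The receptor MERTK and its ligand GAS6 were both higher in PANC-1, by 1.76 and 2.64, as was VEGFC by 2.89.

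SLC7A11, the chain through which IKE acts, was lower in PANC-1 before any drug. IKE blocks system xc-, the cystine importer made of SLC7A11 and SLC3A2. SLC7A11 was 39.5 and 40.5 FPKM in CFPAC-1 and 5.28 and 5.68 FPKM in PANC-1, or 7.3-fold lower (difference -2.66, SE 0.18, adjusted p = 5.90e-08). SLC3A2, the heavy chain shared with other carriers, was 67.5 and 74.1 FPKM against 83.8 and 80.1 FPKM (difference 0.21, adjusted p = 0.0645), and the fit of the DMSO libraries alone called it. Of the 2 chains, SLC7A11 was thus the lower one in PANC-1. SLC1A1, a glutamate and cysteine carrier, was 28.1 and 27.4 FPKM against 0.13 and 0.01 FPKM, and GGT1, which breaks down extracellular glutathione, was lower, with a difference of -4.00.

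CBS, the entry enzyme of transsulfuration, was 3.02 and 2.61 FPKM in CFPAC-1 and 20.8 and 20.9 FPKM in PANC-1, or 7.41-fold higher (adjusted p = 1.54e-10). GCLM, the modifier subunit of glutamate-cysteine ligase, was 4.29 and 5.41 FPKM against 15.4 and 13.7 FPKM (3-fold, adjusted p = 3.57e-05), while the catalytic subunit GCLC overlapped, at 24.9 and 23.4 FPKM against 22.3 and 26.1 FPKM (adjusted p = 0.988). The glutathione exporter ABCC1 was 17.8 and 18.4 FPKM against 129 and 132 FPKM (7.21-fold), and ABCC3 was lower, with a difference of -1.95. Of 23 members of the cystine and glutathione list 9 were higher and 6 lower, with a median of 0.83 that was 0.11 over the 15 expressed in both lines. GCLM and GCLC were named after their values were seen.

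**Figure D4:**
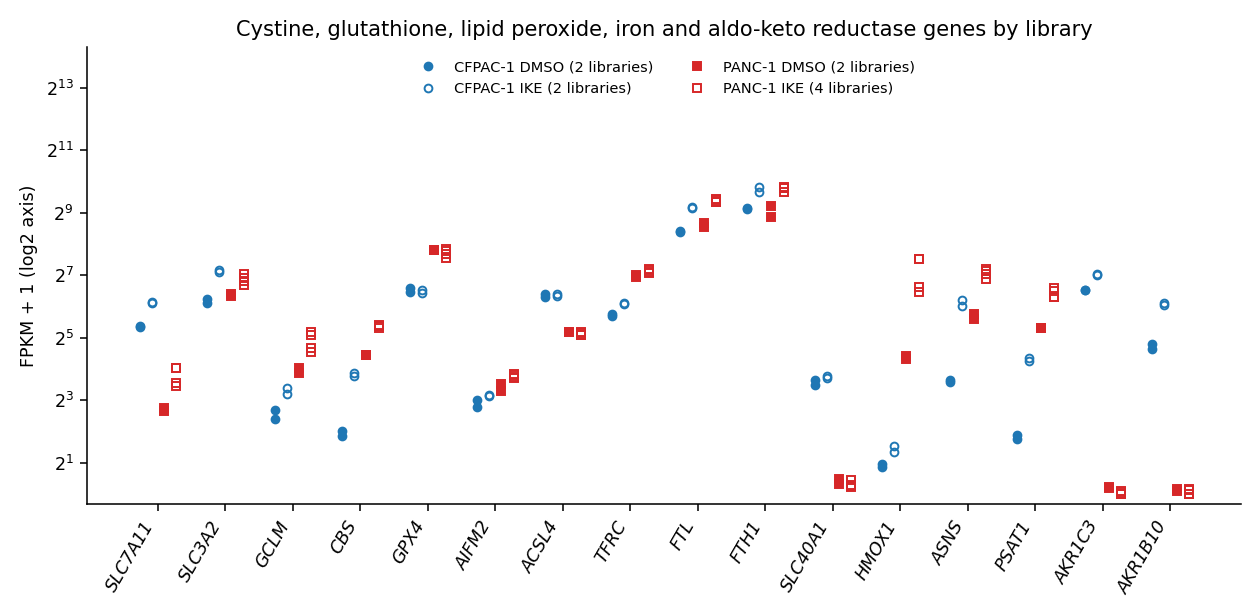
Level of 16 genes in each library, as FPKM + 1 on a log2 axis, with circles for CFPAC-1 and squares for PANC-1, filled for DMSO and open for IKE (10 µM for CFPAC-1, 1 µM for PANC-1). SLC7A11, SLC40A1, AKR1C3 and AKR1B10 are lower in every PANC-1 library than in any CFPAC-1 library, GPX4, TFRC, CBS and HMOX1 are higher, and FTH1 overlaps between the DMSO libraries.

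Of 33 members of a list of ferroptosis suppressors, genes that repair or prevent lipid peroxidation, the 2 higher in PANC-1 were TXNRD1 and GPX4. GPX4, which reduces lipid hydroperoxides with glutathione (chr19:1103926-1106791), was 95.7 and 87 FPKM in CFPAC-1 and 224 and 224 FPKM in PANC-1, or 2.45-fold higher (difference 1.29, SE 0.09, adjusted p = 1.13e-07). TXNRD1, thioredoxin reductase, was 47.1 and 49.4 FPKM against 171 and 172 FPKM (3.56-fold). AIFM2, also called FSP1, which regenerates coenzyme Q, was 5.91 and 7.01 FPKM against 10.5 and 8.9 FPKM (1.5-fold, adjusted p = 8.43e-04). The aldo-keto reductase AKR1C3 was 90.3 and 91.3 FPKM in CFPAC-1 and 0.15 and 0.17 FPKM in PANC-1, and AKR1C1 was lower, with a difference of -3.75. The microsomal transferase MGST1 was 200.4 and 192 FPKM against 18.8 and 16.2 FPKM (difference -3.42). In that list 9 members were lower and 22 did not pass the stricter rule. AKR1C genes share most of their sequence, so the split between them is uncertain.

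ACSL4, which loads polyunsaturated fatty acids into membrane lipids and so favours ferroptosis, was 78.6 and 82.9 FPKM in CFPAC-1 and 35.4 and 35.3 FPKM in PANC-1, or 2.28-fold lower (difference -1.17, SE 0.07, adjusted p = 1.38e-08). Among 26 driver members 5 were higher in PANC-1 and 3 lower, with a median of 0.45 that was 0.32 with median-ratio scaling. At adjusted p alone 17 were higher and 7 lower. Those higher at the stricter rule included HMOX1 (3.43), TFRC (1.23), KEAP1 (1.09) and PLPP1 (1.09). SAT1, a polyamine acetylase, and the lipoxygenase ALOX5 were lower, with differences of -1.89 and -2.30. Of 33 lipid synthesis members 21 did not pass. The elongases ELOVL6 and ELOVL7 were lower, with differences of -3.02 and -3.55, whereas ELOVL2, which extends polyunsaturated chains, was 0.12 and 0.15 FPKM against 20.6 and 19.4 FPKM (difference 4.21).

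The main iron importer and the iron exporter differed in opposite directions. TFRC, the transferrin receptor, was 50.8 and 53.2 FPKM in CFPAC-1 and 127 and 121 FPKM in PANC-1, or 2.38-fold higher (adjusted p = 8.97e-09). SLC40A1, the iron exporter ferroportin, was 10.2 and 11.5 FPKM against 0.39 and 0.25 FPKM (difference -3.17, adjusted p = 2.52e-10). The ferritin chains differed little. FTH1 was 570.2 and 554 FPKM against 466 and 589 FPKM, with overlap (adjusted p = 0.398), and FTL was 339 and 332 FPKM against 372 and 404 FPKM (1.16-fold, adjusted p = 0.0147), a call lost with median-ratio scaling and without the second library of either line (0.19 and 0.15). Without the second PANC-1 library FTH1 was called lower (-0.27). The reductase STEAP3 and the transporter SLC39A14 were higher by 2.47 and 1.72, and the plasma ferroxidase CP was lower, with a difference of -4.56. Over all 31 members 6 were higher and 9 lower, and the median of 0.01 became -0.12 with median-ratio scaling.

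NRF2 targets defend against oxidants. NFE2L2, the gene of NRF2, was 64.2 and 62.7 FPKM in CFPAC-1 and 79.2 and 81 FPKM in PANC-1 (difference 0.33, adjusted p = 5.71e-04), and its brake KEAP1 was 13.4 and 14.7 FPKM against 32.9 and 29.3 FPKM (difference 1.09). HMOX1, haem oxygenase, was 0.84 and 0.96 FPKM against 20.2 and 18.9 FPKM (difference 3.43, adjusted p = 9.19e-07). GPX2 was 80.1 and 75.8 FPKM against 0 and 0 FPKM, and AKR1B10 was 24.1 and 26.9 FPKM against 0.12 and 0.07 FPKM. Of 32 members 10 were higher and 8 lower, with a median of 0.08 that was -0.05 with median-ratio scaling. Of the lower members 6 were included through CFPAC-1 alone, and among the 24 expressed in both lines 8 were higher, 2 were lower and the median was 0.27.

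Targets of ATF4, the factor that answers amino acid shortage, were higher in PANC-1 in 13 of 32 members and lower in 1, with a median of 0.85. PSAT1, of serine synthesis, was 2.38 and 2.73 FPKM in CFPAC-1 and 38.9 and 38.8 FPKM in PANC-1, or 15.2-fold higher (adjusted p = 7.60e-11). ASNS, asparagine synthetase, was 11.5 and 11.1 FPKM against 47.3 and 52.8 FPKM (4.44-fold, adjusted p = 6.65e-09). GDF15 and ATF5 were higher by 3.12 and 2.86. TRIB3 and CEBPB, targets induced under stress, were lower at adjusted p alone (-0.90 and -0.95). Over the 28 members expressed in both lines 11 were higher, 1 was lower and the median was 0.76.

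**Figure D5:**
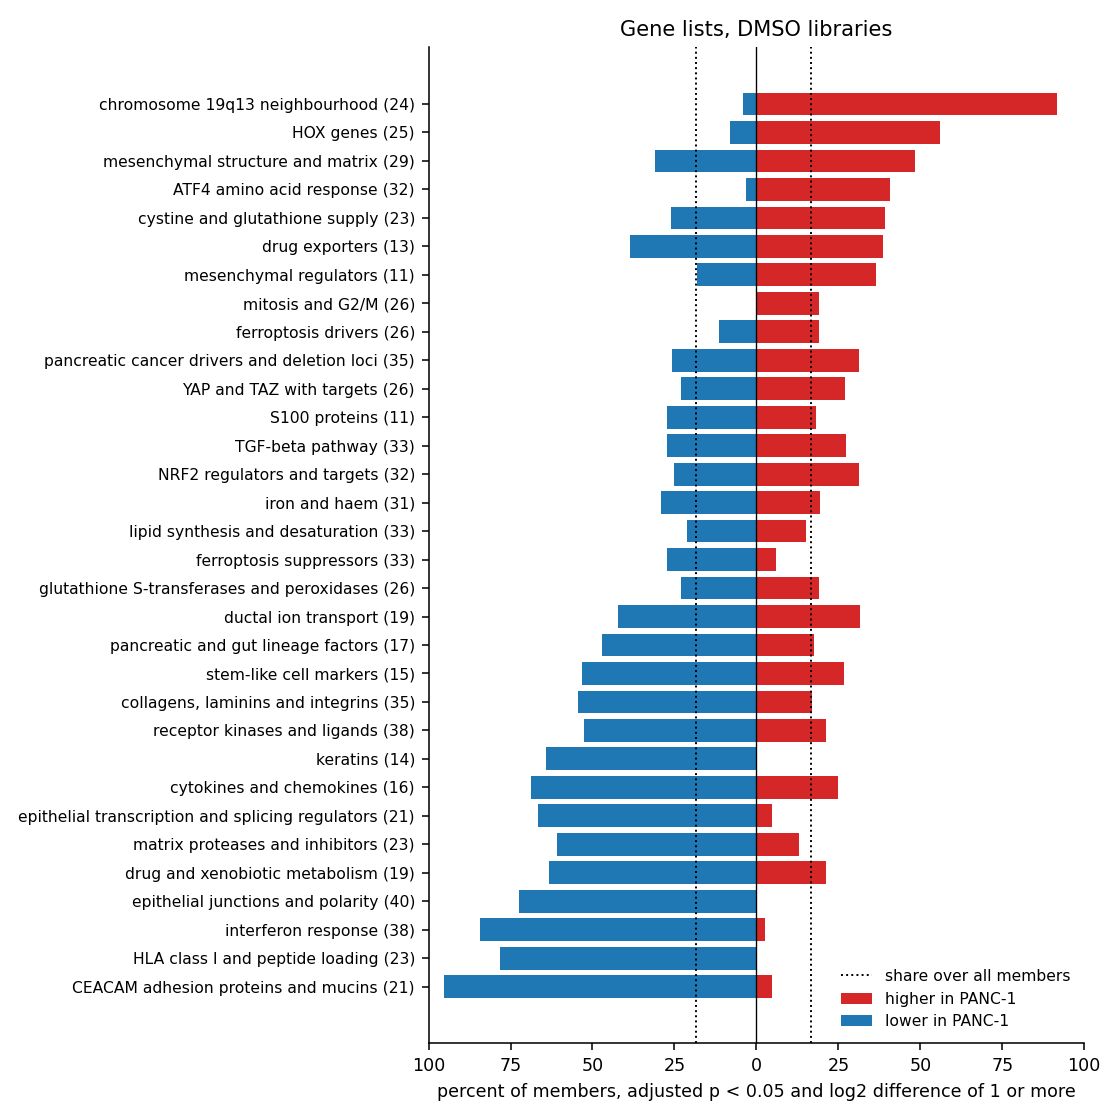
Percent of each list's members that were higher (red, right) or lower (blue, left) in PANC-1 at adjusted p under 0.05 with a log2 difference of 1 or more. Lists drawn have at least 10 members each, though not every such list is drawn. They are ordered by median difference, with member counts in brackets. Dotted lines mark the shares over all members, 16.6% and 18.3%. The 19q13 neighbourhood and the HOX genes lead on the right, and the mucins, HLA, interferon and junction lists on the left.

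The drug libraries gave a reading of the line difference that shares no library with the vehicle comparison, though the fit pools their spread and the doses differ between lines. Of the 2122 members higher in PANC-1 with DMSO at the stricter rule, 1836 (86.5%) were also higher with IKE at that rule, beside 16.5% of all tested genes, and 1 had the opposite sign. Of the 2334 lower, 2146 (91.9%) were also lower, beside 18.2%, and 1 had the opposite sign. For SMAD4 the difference with IKE was 5.40, for CDKN2A -4.27, for RPS16 4.18, for CDH1 -2.66 and for SLC7A11 -2.37. A difference between the 2 readings passed at adjusted p under 0.05 for 44 of 13077 genes (0.336%), and 7 named genes are among them. ASNS is one, with a difference of 2.06 with DMSO and 0.95 with IKE.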

How the data were processed

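RNA was measured by sequencing of rRNA-depleted total RNA in 10 libraries, of which the 4 vehicle libraries carry the comparison. The submitters' processing notes name StringTie 1.3.4, HISAT2 2.1.0, fastp 0.18.0, DESeq2 and Bowtie2 2.2.8, with GRCh38. What each tool did, which annotation was used and whether counting used strand is not stated there. The authors deposited FPKM per gene, without read counts, so depth is unknown and no counting interval is given. The table held 9 further columns that were empty.

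From these values log2(FPKM + 1) was fitted with limma 3.58.1 in R 4.3.3 over genes at 1 FPKM or more in at least 2 libraries, with 1 mean per line and treatment, a trend in the prior, 6 residual and 5.1 prior degrees of freedom, and Benjamini-Hochberg adjustment (two-sided). Line differences with DMSO and with IKE come from the same fit. Simulated data had 13077 genes, of which 200 above 1 FPKM in CFPAC-1 were changed per run, with noise averaged over genes of similar level. In these data the fit recovered 79.6% of 1.5-fold and 99.6% of 2-fold changes of FPKM + 1 for the DMSO comparison. There 5.27% of calls were false. Most genes were called between the real lines, so these rates need not hold for the real calls. Same-numbered libraries of the 2 lines did not deviate together (correlation 0.038), so no pairing was used.

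Symbols and positions come from GENCODE 29, with positions for 20171 genes. Named genes include those with the largest called differences among all members and among genes expressed in both lines, provided that the lines' libraries did not overlap. The others are those with the largest called differences in each list, a panel named whatever its value, and genes of described windows. CRB3, AP1M2, CGN, TJP3, B2M, PSMB8, TAP2, GCLM and GCLC were added after their values were seen. The members and lists were chosen with earlier results of these data known. Alternatives tried were quantile and median-ratio scaling, a pseudocount of 0.1, other filters, a replicate block, fits of 1 treatment alone and leaving out single libraries. Results for some genes are not reported here.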

Additional observations from a re-analysis of the deposited data

Results flagged for a closer look

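In 7 named genes the line difference itself differed between the drug and the vehicle libraries (limma interaction, adjusted over all tested genes). The doses differ between the lines, so a line-specific response and a dose-specific response cannot be told apart.

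In 3 genes of amino acid and sulfur metabolism the gap was narrower with IKE. PSAT1 was 18.1 and 19.4 FPKM in the CFPAC-1 libraries with IKE and 77.1 to 95.3 FPKM in the 4 PANC-1 libraries, and its line difference changed by -1.374 (adjusted p = 0.00281). ASNS was 64.2 and 72.6 FPKM against 116 to 146 FPKM, a change of -1.107 (adjusted p = 0.0082). CBS was 12.6 and 13.7 FPKM against 38.5 to 41.7 FPKM, a change of -0.975 (adjusted p = 0.00358). All 3 were higher with IKE than with DMSO in both lines. HGF, at 0.01 FPKM or less in CFPAC-1, was 7.89 to 8.65 FPKM in PANC-1 with IKE, a change of -0.802 (adjusted p = 0.0215).

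The gap was wider for the aldo-keto reductases. AKR1B10 was 67.7 and 65 FPKM in CFPAC-1 with IKE and at most 0.12 FPKM in PANC-1, a change of -1.409 (adjusted p = 0.00281). AKR1C3 was 128 and 132 FPKM against at most 0.07 FPKM, a change of -0.682 (adjusted p = 0.0434). For PLAAT4 the gap was narrower with IKE, with a line difference of -6.69 with DMSO and -6.09 with IKE. It was 390 and 369 FPKM against 4.36 to 4.86 FPKM, a change of 0.592 (adjusted p = 0.0242).

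Among the 4 PANC-1 libraries with IKE, 1 library stood far from the other 3 by Dixon's criterion, which chance meets in about 1 of 20 groups, for 4 genes of the panel. The panel holds many genes, so some such cases are likely by chance alone, and their number was not tested. These were CDH2 (16.86 FPKM), KRT19 (874.93 FPKM) and KRT8 (2980.09 FPKM) in replicate 2 and CDKN2A (1.95 FPKM) in replicate 4.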

How the results depend on the processing

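The counts of called members kept to within 1.5 times of 5594 higher and 4521 lower in every alternative that kept the threshold on adjusted p alone. They were 4937 and 5050 with median-ratio scaling, which moved the majority of calls to the lower side, and 5700 and 4456 with quantile normalization. They were 5173 to 5231 and 4215 to 4235 without a single DMSO library. Requiring a log2 difference of at least 1 left 2122 and 2334, and 1590 and 1273 among genes expressed in both lines, in place of 4900 and 3282. The replicate block, fitted to the DMSO libraries, gave 5673 and 4585, and of 311 named genes it gained the call of SLC3A2 and lost that of FOXA2 (0.38). It changed no other call among them. With IKE, the counts were 5723 and 4742, and 5260 to 5731 and 4391 to 4774 without a single IKE library, an alternative chosen after seeing the data.

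The sign turned with quantile normalization for KRT18 (-0.169), KRT8 (-0.320), EGFR (-0.009), ZEB2 (0.038) and PDX1 (0.317). With median-ratio scaling it turned for EGFR (-0.073) and for the medians of the iron list (-0.122) and the NRF2 list (-0.049). Leaving out 1 library turned the sign of GCLC (-0.113 to 0.109, and 0.042 without the first CFPAC-1 library), FTH1 (-0.269 to 0.068) and TAP2 (-0.088 to 0.356). None of KRT8, EGFR, PDX1, GCLC, FTH1 and TAP2 passed the test at first, and the cause was not tested. Smaller differences between the lines are limited by 2 libraries per line and by unknown depth, and levels under about 0.1 FPKM by the smallest steps in the table.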

Other observations

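Drug handling genes differed in both directions. SLC29A1, the main carrier of nucleoside drugs such as gemcitabine into cells, was 14.9 and 14.8 FPKM in CFPAC-1 and 156 and 144 FPKM in PANC-1 with DMSO, or 10.1-fold higher (difference 3.26). Of 13 drug exporters 5 were higher in PANC-1 and 5 lower at the stricter rule. Among them 2 were included through PANC-1 alone and 3 through CFPAC-1 alone, and over the 8 expressed in both lines 3 were higher and 2 lower. ABCG2 was 0.11 and 0.13 FPKM against 31.5 and 26.7 FPKM, while the multidrug pump ABCB1 was lower, with a difference of -1.68. Of 19 drug and xenobiotic metabolism genes 12 were lower in PANC-1, among them the aldehyde dehydrogenase ALDH1A1 (-6.52) and the cytochrome CYP3A5 (-5.43), and 4 were higher, among them CYP1B1 (1.3). Of these genes 6 were included through CFPAC-1 alone, and over the 13 expressed in both lines 6 were lower, 4 were higher and the median was -0.12.

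Markers used for stem-like tumour cells were split. PROM1, or CD133, was lower in PANC-1, with a difference of -6.93. CD44 was 319 and 296 FPKM against 573 and 662 FPKM (difference 1.00). Of 15 such genes 8 were lower and 4 higher. Of the 15, 4 were included through CFPAC-1 alone and 2 through PANC-1 alone. Over the 9 expressed in both lines 4 were lower, 2 were higher and the median was -0.49. Ductal ion transport genes were divided as well, with 8 of 19 lower and 6 higher. Of the 19, 7 were included through CFPAC-1 alone and 3 through PANC-1 alone, which favours those directions. Over the 9 expressed in both lines 3 were higher, 2 were lower and the median was 0.33. The water channel AQP5 (-6.90), the bicarbonate carrier SLC4A4 (-6.24), the chloride channel ANO1 (-4.27) and the sodium channel subunit SCNN1A (-3.04) were lower, and the bicarbonate carrier SLC4A7 (3.51) was higher.

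Of 26 mitosis genes 5 were higher in PANC-1, none was lower and 21 did not pass the stricter rule, with a median of 0.58. NDC80, a kinetochore protein, was higher by 1.77, and TTK, a checkpoint kinase, by 1.53. The YAP target ANKRD1 was 127 and 111 FPKM in CFPAC-1 and 0.7 and 0.91 FPKM in PANC-1 (difference -6.05). The 26 YAP and TAZ genes were split, with 7 higher, among them the partner factor TEAD2 (3.40), and 6 lower. Their median was 0.21, beside 0.12 over all tested genes.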
